A study of Macaca fascicularis with 4 samples.

Results

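Endothelial cells line the blood vessels, and here they are the 1084 of 27626 cell barcodes of 4 cynomolgus monkey (Macaca fascicularis) embryo libraries that were chosen by their own transcript counts. A barcode was taken where at least 4 of 8 endothelial genes (PECAM1, CDH5, KDR, TEK, EGFL7, ESAM, TIE1 and CALCRL) had 1 or more unique molecular identifier (UMI, a counted transcript molecule) and where the embryonic globins HBZ and HBE1 together made up under 5% of its UMIs. They numbered 292 of 10639 barcodes at embryonic day 24 (E24, Carnegie stage 11), 246 of 5028 at E28 (stage 13), 334 of 6661 at E31 (stage 14) and 212 of 5298 at E37 (stage 18). The series profiled tissue around the forming gonad by droplet sequencing (transcript 3′ ends). Each stage has 1 library, with no treatment or genetic change named in the labels. At E24 most of the trunk was taken after the yolk sac, the amnion, the heart with everything anterior to it and the posterior growth zone had been cut away, and the label names 2 embryos for this library. At E28 and E31 the piece was the ridge that forms kidney and gonad, with mesonephros, lining epithelium of the coelom and part of the mesentery, and at E37 it was mainly the gonadal ridge, with some mesonephros, mesentery and tissue taken to be adrenal. Stage and dissection therefore changed together and cannot be told apart.

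The first vessels form from mesodermal angioblasts under VEGF signalling through KDR and the ETS factor ETV2, and SOX and ETS factors then hold the endothelial programme. Arterial endothelium is marked by Notch signalling, the connexins GJA4 and GJA5 and the chemokine receptor CXCR4, and venous endothelium by the nuclear receptor NR2F2 with APLNR, EPHB4 and NRP2. Lymphatic endothelium arises largely from veins that switch on PROX1, and in the dorsal aorta some endothelial cells turn on RUNX1 and give rise to blood stem cells.

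Since each stage had a single library and cells of 1 library are not replicates, no test was run and no p-value is given. UMIs were summed over the barcodes of a group and divided by the total of the group, in counts per 1000000 (CPM). Bracketed ranges are 95% intervals of the counting error alone, exact binomial for shares and for ratios of 2 sums. A gene counted as measured in a comparison at 10 CPM or more in the higher group, and as higher or lower at a difference of 2-fold or more. The endothelial barcodes held 3436193, 3586559, 4417434 and 2115204 UMIs in the order of the stages, so a gene with no UMI lies under 0.873, 0.836, 0.679 and 1.42 CPM, the level of 3 counts. Their median barcode held between 8507 and 13354.5 UMIs, against between 6622 and 11304 in the other barcodes. Between 37 and 111 barcode sequences were shared by each pair of libraries, and 9, 14, 5 and 5 endothelial barcodes carried a sequence found in another library.

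Endothelial barcodes made up 2.74% (2.44 to 3.07%) of the E24 library, 4.89% (4.31 to 5.53%) at E28, 5.01% (4.50 to 5.57%) at E31 and 4.0% (3.49 to 4.56%) at E37. Most lay well inside the rule, with 80.1%, 94.3%, 88.0% and 90.6% holding 6 or more of the 8 genes. Just inside were 26, 5, 16 and 6 barcodes with exactly 4 genes, and just outside were 37, 28, 32 and 15 with exactly 3. RAMP2, a receptor partner outside the rule, stood at 956, 175, 773 and 329 CPM in those just inside and at 92.2, 86.7, 90.1 and 96.1 CPM in those just outside. CD34, also outside the rule, stood at 192, 38.8, 234 and 174 CPM just inside, against 13.9, 0, 55.05 and 163 CPM. CLDN5, likewise outside it, stood at 32, 38.8, 45.45 and 193 CPM just inside, against 5.22, 4.13, 40.03 and 0 CPM. The edge thus separated little by CD34 at E37 and by CLDN5 at E31. The globin limit removed no barcode at E24 or E28 and 1 each at E31 and E37.

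**Figure D1:**
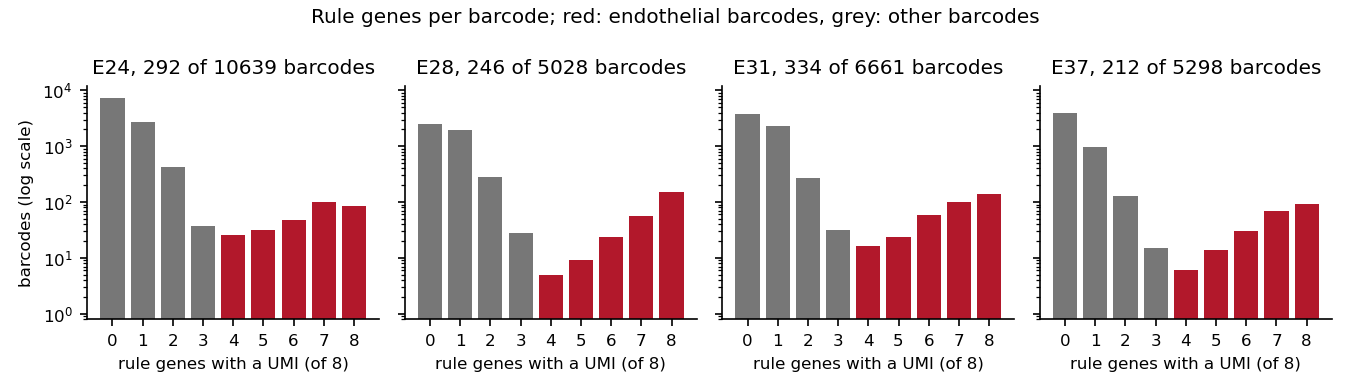
Number of barcodes (log scale) by how many of the 8 rule genes had a UMI, 1 panel per library; red bars are endothelial barcodes and grey bars other barcodes. In each library the count is lowest at 4 genes (26, 5, 16 and 6 barcodes) and higher on either side.

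The label fits the genes that the rule did not use, although these values come from the same cells and are a description only. RAMP2, which partners CALCRL as the adrenomedullin receptor, stood at 2171, 2906, 2560 and 3293 CPM in endothelial barcodes, against 18.3, 60.6, 51.8 and 135 CPM in the other barcodes. RNASE1, a secreted ribonuclease of endothelium, stood at 480, 913, 744 and 1033 CPM, against 0.483, 1.09, 1.22 and 1.81 CPM, and the progenitor and endothelial surface protein CD34 at 281, 440, 347 and 370 CPM, against 0.563, 0.815, 0.885 and 1.44 CPM. The excess in endothelial barcodes was 256-fold or more for both in every library.

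Of 28 pan-endothelial genes outside the rule, 25, 26, 25 and 26 were measured and 25, 26, 25 and 25 were higher in endothelial barcodes at E24, E28, E31 and E37. Over all genes, 11.2%, 10.6%, 10.3% and 11% were higher. The median log2 ratio of the list was 6.18, 6.30, 6.11 and 6.66, beside 0.00, -0.11, -0.06 and -0.11 over all measured genes. Transcription factors of the endothelial programme gave the same picture, with 21 of 21, 19 of 20, 19 of 20 and 20 of 20 higher. Among them the ETS factor ERG stood at 106, 146, 120 and 146 CPM, against 0.393, 0.968, 0.826 and 0.839 CPM in the other barcodes, and SOX18, a factor of vessel and lymphatic identity, at 38.7, 89.8, 84.4 and 107 CPM, against 0.152, 0.136, 0.133 and 0.157 CPM. Genes of clotting and vessel tone followed, with 13 of 15, 12 of 15, 11 of 14 and 13 of 14 higher. VWF, the platelet-tethering protein stored in endothelium, was at 36.7, 42.4, 58.4 and 75.6 CPM, against 0.545, 0.611, 0.782 and 0.682 CPM, and NOS3, which makes nitric oxide, at 28.8, 39.9, 30.8 and 35.9 CPM, against 0.402, 0.509, 0.428 and 0.839 CPM. These counts repeat the choice of members, so nothing further is read from them.

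Some genes with the widest gap are less often used as markers. The 20 genes outside the rule with the highest lower bound in their weakest library included the scavenger receptor STAB2, the ficolin FCN3, the secreted nuclease DNASE1L3 and the interferon-induced synthetase OAS1. STAB2 stood at 72.8, 74.2, 51.6 and 65.7 CPM in endothelial barcodes, against 0.0715, 0.0509, 0.147 and 0 CPM in the other barcodes. FCN3 was at 78.3, 37.9, 59.8 and 26.9 CPM, against 0.0715, 0.17, 0.0590 and 0.0262 CPM, and DNASE1L3 at 69.6, 34.9, 55.9 and 46.8 CPM, against 0.0804, 0.17, 0.0737 and 0.0525 CPM. OAS1 was at 52.7, 154, 106 and 178 CPM, against 0.0447, 0.475, 0.265 and 0.813 CPM. The other named genes of this set were MYCT1, MMRN2, TM4SF18, SOX18, BCL6B, KANK3, CXHXorf36, ERG, FAM124B, ICAM2, DLL4, SOX7, PLVAP, ADGRF5, RNASE1 and CD34. Across all genes, 541 of 8181 (6.61%) were higher in all 4 libraries and 316 (3.86%) were lower.

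Some endothelial barcodes carried markers of a further cell class. The 8 classes were macrophage, mural, mesenchyme, kidney epithelium, podocyte, neural, erythroid and megakaryocyte. Of the endothelial barcodes, 19.2%, 19.1%, 20.4% and 13.2% had a UMI in 3 or more markers of at least 1 class. Of the other barcodes, 54.0%, 78.5%, 68.0% and 77.4% did. The other barcodes include cells of these classes, so the lower endothelial share does not measure how mixed the endothelial barcodes are. Summed over the list, mesenchyme markers stood at 175, 44.1, 96.9 and 179 CPM in endothelial barcodes, against 1244, 599, 557 and 1861 CPM in the other barcodes, and mural markers, of the cells that wrap vessels, at 359, 131, 240 and 228 CPM, against 257, 359, 302 and 610 CPM. The mural sum was thus higher in endothelial barcodes at E24, where RGS5 alone of the list was higher by 2-fold or more. ACTA2, PDGFRB and DES were lower there. A UMI in 3 or more mural markers was found in 9.25% of endothelial and 12.8% of other barcodes at E24. The macrophage list stood at 123, 203, 154 and 231 CPM, against 53.0, 94.4, 122 and 285 CPM. A UMI in 3 or more macrophage markers was found in 3.08%, 7.72%, 9.28% and 6.6% of endothelial barcodes, against 0.454%, 0.606%, 0.933% and 1.57% of the others, more often in endothelial barcodes at each stage. The markers of the list did not move together. AIF1 was higher by 2-fold or more at each stage, SPI1 at E28, E31 and E37, MRC1 at E24, and FCER1G and PTPRC at E28. C1QA, C1QB and C1QC were lower at E31 and E37, and CSF1R was lower at E37. Some genes came almost entirely from single barcodes. At E24 a single barcode held 100% of the 116 endothelial UMIs of ISM2 and of the 70 of PRG2, and 1 E37 barcode held 99.6% of those of the platelet chemokine PPBP, 99.1% of PLEK and 98.4% of CCL5. The complement genes C1QA, C1QB and C1QC of macrophages came almost entirely from 1 barcode at E28 and 1 at E37, with between 96.7% and 100% of their UMIs. Each of these barcodes held exactly 4 rule genes, the fewest the rule allows, and stage differences in these genes are those of single barcodes.

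The stage pair with the most genes past 2-fold was E28 and E24. In endothelial barcodes, 385 of 8829 genes (4.36%) were higher at E28 than at E24 and 251 (2.84%) were lower. From E28 to E31, 89 of 8787 (1.01%) were higher at E31 and 100 (1.14%) lower, and between E37 and E31, 237 of 8801 (2.69%) were higher at E37 and 291 (3.31%) lower. After thinning to 2000 UMIs a barcode, the rule was applied again to the thinned counts. The pair of E37 and E31 then had 1024 and 1238 such genes and the pair of E28 and E24 had 1101 and 1060. Their order thus turned. The other barcodes of the same libraries showed 8.57% and 3.28%, 0.327% and 0.766%, and 5.63% and 4.75%. E31 and E28 had dissections of the same kind and are also the pair closest in age, and the part of each in their small difference was not tested. The median log2 ratio over all genes was 0.02, 0.01 and -0.10 in the 3 pairs.

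Core endothelial genes changed little, and those that did were mostly higher after E24. Of 26 pan-endothelial genes, 5 were higher at E28 than at E24 and none lower, with a median log2 ratio of 0.63. No gene of the list passed 2-fold between E31 and E28 (median -0.15), and between E37 and E31 there were 2 higher and 1 lower of 25 (median 0.28). Together the list made up 5660, 7323, 6526 and 8256 CPM.

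CLDN5, the tight junction protein of the endothelial barrier, was at 182, 337, 294 and 708 CPM across the stages. It was 1.85-fold (1.68 to 2.04) higher at E28 than at E24 and 2.41-fold (2.23 to 2.59) higher at E37 than at E31. The share of endothelial barcodes with a CLDN5 UMI was 44.5%, 73.6%, 67.7% and 90.6%, and after thinning every barcode to 2000 UMIs it was 21.9%, 40.2%, 39.5% and 65.1%, in the same order of stages. After thinning, with the members chosen again from the thinned counts, its log2 ratio of E37 over E31 was 0.82. In the other barcodes CLDN5 stood at 0.286, 53.8, 48.3 and 3.62 CPM, with a UMI in 0.280%, 13.6%, 10.7% and 0.983% of barcodes. The part of CLDN5 from outside the endothelium in the E28 and E31 values was not tested.

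EMCN, a sialomucin of veins and capillaries, was at 57.3, 179, 172 and 201 CPM and was 3.13-fold (2.66 to 3.69) higher at E28 than at E24. The guidance receptor ROBO4 followed at 11.1, 39.9, 26.5 and 42.5 CPM, the endothelial phosphatase PTPRB at 46.3, 101, 65.9 and 131 CPM and APOLD1 at 27.6, 91.5, 100.1 and 79.4 CPM. All 4 had their lowest level at E24. NOSTRIN, which controls the trafficking of NOS3, was at 16.9, 32.3, 40.7 and 89.8 CPM and was 2.20-fold (1.79 to 2.72) higher at E37 than at E31.

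The flow-responsive factors KLF2 and KLF4 were among the 3 of 21 endothelial transcription factors higher at E28 than at E24, and SOX18 was the other. KLF2 was at 61.1, 123, 113 and 182 CPM, 2.02-fold (1.71 to 2.39) higher at E28 than at E24 and 1.62-fold (1.41 to 1.85) higher at E37 than at E31. KLF4 was at 12.8, 31.2, 39.8 and 52.5 CPM. SOX18 was 2.32-fold (1.89 to 2.86) higher at E28 than at E24. KLF2 and KLF4 also differed in the other barcodes, at 0.527, 2.34, 0.723 and 12.1 CPM and at 2.48, 8.37, 2.61 and 14.5 CPM, with E28 above E24 and E37 above E31 in both genes. After thinning, the log2 ratio of E28 over E24 was 0.47 for KLF2, 0.67 for KLF4 and 0.45 for SOX18, all in the same direction but under 2-fold.

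The immediate early genes, which dissociation of tissue can also induce, moved with the library. FOS stood at 58.5, 335, 105 and 419 CPM in endothelial barcodes and at 70.4, 408, 80.1 and 655 CPM in the other barcodes. Of 12 stress genes measured, 7 were higher and 1 lower at E28 than at E24, 4 were lower at E31 than at E28 and 6 were higher at E37 than at E31, with medians of 1.41, -0.75 and 1.14. The other barcodes had medians of 2.26, -1.11 and 1.99. KLF2 and KLF4 are inducible in the same way, and the part of this induction in their levels was not tested.

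ETV2, which starts the endothelial programme, was the 1 factor lower at E28 than at E24. It stood at 23.3, 7.25, 6.79 and 3.78 CPM, which made it 3.21-fold (2.04 to 5.21) lower at E28 than at E24. In the other barcodes it stood at 5.43, 7.34, 6.90 and 5.46 CPM, so that it was above them at E24 alone, by 4.28-fold (3.35 to 5.42). Of 292 endothelial barcodes at E24, 32 had an ETV2 UMI. The difference rests on 26 UMIs at E28 and 80 at E24. Without expected-rate doublets the log2 ratio of E28 over E24 for ETV2 was 0.00, where it was -1.66 with them, and after thinning it turned to 1.47.

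Several genes were high in endothelium early and lower later. HAPLN1, a linker of the hyaluronan matrix, was the most abundant of these, at 1672, 855, 861 and 266 CPM. It was 1.95-fold (1.87 to 2.04) lower at E28 than at E24 and 3.24-fold (2.96 to 3.55) lower at E37 than at E31, and after thinning a UMI was found in 80.1%, 64.2%, 71.0% and 27.4% of endothelial barcodes. FLT1, the VEGF receptor that acts mainly as a decoy, was at 246, 198, 190 and 88.4 CPM and was 2.15-fold (1.84 to 2.54) lower at E37 than at E31. KDR, the signalling VEGF receptor and a gene of the rule, was at 402, 331, 284 and 288 CPM.

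The vasodilator peptide ADM was at 57.0, 12, 10.6 and 12.8 CPM, 4.76-fold (3.41 to 6.78) lower at E28 than at E24. Lipoprotein lipase, LPL, was at 48.0, 19.2, 10.9 and 4.73 CPM. COLEC12, a scavenger receptor, was at 80.0, 14.8, 12.2 and 8.51 CPM and 5.42-fold (4.02 to 7.41) lower at E28 than at E24, where it was 1.15-fold lower in the other barcodes. RGS5, better known from pericytes, was at 280, 67.5, 132 and 153 CPM in endothelial barcodes and at 66.8, 97.6, 88.2 and 93.9 CPM in the others. RGS5 was thus 4.19-fold (3.91 to 4.48) higher in endothelial than in other barcodes at E24 and lower than in them at E28.

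Of 15 measured genes of glucose uptake, glycolysis and the hypoxia response, 6 were lower at E28 than at E24 and none higher by 2-fold. The 6 were SLC2A1, SLC2A3, HK2, ENO1, LDHA and BNIP3. Over all genes, 2.84% were lower. After thinning, SLC2A3, HK2, ENO1 and LDHA of these had log2 ratios of -0.997, -0.97, -0.83 and -0.76, in the same direction but under 2-fold. The list sum was 3506, 1924, 1902 and 1429 CPM. SLC2A1, the glucose transporter, was at 86.4, 18.7, 18.6 and 16.5 CPM and LDHA, lactate dehydrogenase, at 424, 210, 220 and 107 CPM. In the other barcodes the list sum was 3263, 1709, 1548 and 1492 CPM and SLC2A1 stood at 173, 36.0, 30.0 and 29.1 CPM. The mitophagy gene BNIP3 was at 387, 109, 123 and 93.1 CPM in endothelial barcodes and at 405, 158, 116 and 177 CPM in the others. LIN28A, which binds RNA and is typical of the early embryo, was at 87.9, 7.25, 11.1 and 0 CPM in endothelial barcodes and at 197, 51.1, 62.9 and 2.96 CPM in the others.

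Genes that gained in endothelium while holding within 1.5-fold in the surrounding cells were named by a fixed order. At E28 against E24 they included ITM2A, PROX1, S100P, ALPL, RARB, APOLD1 and PLEKHA1. ITM2A, a transmembrane protein, was at 18, 81.1, 53.7 and 195 CPM and was 4.50-fold (3.41 to 6.02) higher at E28 than at E24, where the other barcodes differed by 1.15-fold. RARB, a retinoic acid receptor, was at 9.02, 37.6, 32.8 and 20.8 CPM. S100P, a calcium-binding protein, was at 21.8, 88.4, 52.5 and 55.3 CPM and alkaline phosphatase, ALPL, at 12.5, 51.0, 40.3 and 6.15 CPM. The addressin MADCAM1, first in the order with no limit on other cells, was at 4.37, 51.0, 31.7 and 33.6 CPM, and was 11.7-fold (6.90 to 21.3) higher at E28 than at E24.

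Those lower at E28 in the same way were ENPP1, COLEC12, RGS5, MRC1, MEST, CRABP2, HMGCS1 and LGALS1. MEST, an imprinted gene, was at 313, 98.4, 154 and 81.8 CPM in endothelial barcodes, against 1428, 1055, 1160 and 1060 CPM in the other barcodes. HMGCS1, an enzyme of cholesterol synthesis, was at 143, 56.3, 46.9 and 21.7 CPM, against 156, 108, 80.9 and 49.2 CPM. The mesodermal factor HAND1 had 21.2 CPM at E24 and no UMI later, and in the other barcodes it stood at 147, 1.49, 0.236 and 3.62 CPM.

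Between E31 and E28, 8 genes a direction were named as well. EDN1, the vasoconstrictor endothelin, was at 44.8, 17.0, 61.6 and 106 CPM and was 3.62-fold (2.73 to 4.86) higher at E31 than at E28. The other higher genes included DLK1, CRABP2, EPHA4 and GPC3, which were far lower in endothelial than in other barcodes at both stages. DLK1 stood at 59.7 CPM in endothelial barcodes at E28 and 151 CPM at E31, against 851 and 867 CPM in the other barcodes, and the part of free RNA in these values was not tested. The log2 ratio of E31 over E28 for DLK1 was 1.34, but 0.09 with 3 rule genes and 0.08 without members carrying 3 markers of another type, and after thinning it turned to -1.0. With 3 rule genes CRABP2 had 0.42, EPHA4 0.51 and GPC3 0.61, so that none of the 4 genes kept a 2-fold difference there. Of the genes lower at E31, the cardiac and muscle protein TTN was at 4.07, 21.2, 4.98 and 5.20 CPM and PLXDC2 at 24.2, 78.1, 32.1 and 52.5 CPM. ACTG2, the first of the higher genes with no limit on other cells, had 80.6% of its E31 UMIs in 1 barcode.

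At E37 the genes higher than at E31 were CD74, PLEK, S100A4, SLC51A, LTBP4, CEBPD, DST and TMEM100. LTBP4, a binder of latent TGF-beta, was at 14.6, 31.5, 20.8 and 68.6 CPM and was 3.29-fold (2.52 to 4.32) higher at E37 than at E31. DST, a cytoskeletal linker, was at 53.8, 119, 81.5 and 199.5 CPM, found in 167 of 212 barcodes at E37. CD74, of the antigen-presenting machinery, was at 0, 2.51, 1.13 and 30.3 CPM but came from 9 barcodes at E37, and the gene PLEK from 1 barcode as given above. Neurotensin, NTS, was at 12.2, 3.62, 3.62 and 123 CPM, from 35 barcodes at E37.

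Lower at E37 than at E31 were LRP11, CKB, PDLIM4, PFKFB3, GPC3, LRRC3B, DDX28 and TNIK. PFKFB3, which drives glycolysis in sprouting endothelium, was at 19.8, 28.7, 32.4 and 9.46 CPM and was 3.42-fold (2.14 to 5.77) lower at E37, and after thinning its log2 ratio was -0.79. First in the order with no limit on other cells was ESM1, a proteoglycan of tip cells, at 79.7, 161, 171 and 9.93 CPM, which was 17.2-fold (11.2 to 28) lower at E37 than at E31. The kidney genes LHX1 and PAX8 followed ESM1 in this direction, at 18.8 and 14 CPM at E31 and no UMI at E37 in endothelial barcodes. In the other barcodes they stood at 168 and 91.7 CPM at E31 and at 4.48 and 4.25 CPM at E37.

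**Figure D2:**
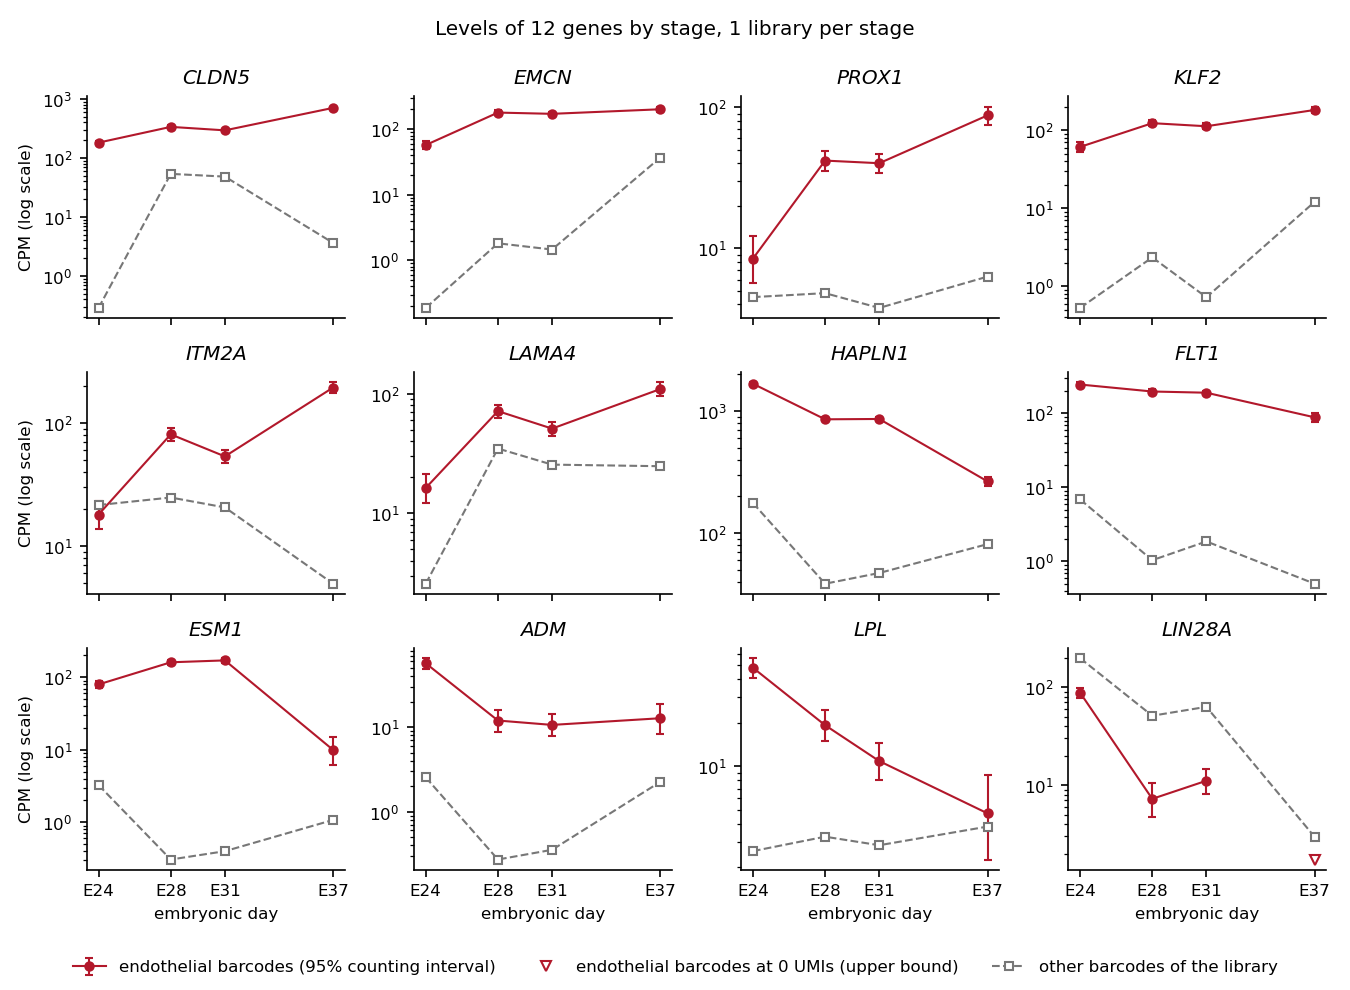
CPM (log scale) of 12 genes by embryonic day; red points are summed endothelial barcodes with 95% counting intervals, open grey squares the other barcodes of the library, and the red open triangle an upper bound at 0 UMIs. CLDN5, EMCN, PROX1, KLF2, ITM2A and LAMA4 were lowest at E24 in endothelium, HAPLN1, FLT1, ADM, LPL and LIN28A were highest there, and ESM1 was at 9.93 CPM at E37.

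Some genes of the basement membrane and of caveolae differed between stages in endothelial barcodes. Of 13 basement membrane genes, 2 were higher at E28 than at E24 (COL4A2 and LAMA4) and TIMP3 was lower. Over all genes, 4.36% were higher and 2.84% lower. COL4A2 had a log2 ratio of 0.92 without expected-rate doublets and 0.93 after thinning, under 2-fold in both. The laminin chain LAMA4 was at 16.3, 71.7, 51.2 and 110 CPM, against 2.57, 34.8, 25.6 and 24.8 CPM in the other barcodes, and was 2.14-fold (1.78 to 2.59) higher at E37 than at E31. CAVIN2, a coat protein of caveolae, was at 117, 306, 289 and 451 CPM, and CAV1, the caveolin of the same structures, was low throughout at 13.1, 3.35, 1.81 and 19.4 CPM. The fatty acid carrier FABP4 had no UMI at E24 and stood at 5.86, 3.40 and 11.3 CPM at E28, E31 and E37. Of the 20 cell cycle genes, none passed 2-fold between E28 and E24 or between E31 and E28, and MCM5 and RRM2 were lower at E37 than at E31. The cell cycle list summed to 2470, 1886, 2097 and 1525 CPM in endothelial barcodes and to 3215, 2408, 2541 and 1823 CPM in the others, in the same order of stages.

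The endothelial barcodes were divided by their arterial and venous genes. Arterial-marked barcodes had a UMI in at least 2 of GJA4, GJA5, DLL4, HEY1 and CXCR4 and in more of these than of NR2F2, APLNR, EPHB4, NRP2 and FLT4, and venous-marked barcodes the other way. There were 50, 30, 28 and 19 arterial-marked and 218, 194, 267 and 175 venous-marked barcodes, with 24, 22, 39 and 18 in neither set. Arterial-marked barcodes made up 17.1% (13 to 21.9%) at E24, 12.2% (8.38 to 16.9%) at E28, 8.38% (5.64 to 11.9%) at E31 and 8.96% (5.48 to 13.6%) at E37. The E24 interval lies above that of E31 and overlaps those of E28 and E37. Their median UMIs were 6994.5, 11689.5, 12467.5 and 9491, against 11209, 13483.5, 11014 and 8990 in venous-marked barcodes. Between 4 and 27 members of a library were placed by a difference of a single gene.

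The sets lay far apart in the genes that defined them, which is a description. The connexin GJA5 stood at 489, 575, 911 and 1536 CPM in arterial-marked barcodes, against 3.27, 1.72, 0.281 and 0 CPM in venous-marked ones, and the apelin receptor APLNR at 20.7, 46.0, 28.2 and 0 CPM, against 457, 668, 544 and 666 CPM. NR2F2 was the least exclusive at the last stage, at 9.22, 37.4, 28.2 and 155 CPM, against 280, 330, 412 and 455 CPM. Of barcodes with a GJA5 UMI, 10 of 49, 9 of 29, 4 of 28 and 0 of 22 also had an APLNR UMI, where 88.9%, 89.4%, 85.0% and 90.5% of barcodes without GJA5 did. The interval of the 0 of 22 at E37 runs to 15.4%.

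Outside the defining genes, 12 of 12, 10 of 12, 11 of 12 and 14 of 14 measured genes of the arterial list were higher in arterial-marked barcodes, with medians of 2.34, 2.28, 2.81 and 3.42 on the log2 scale. Over all genes, 9.22%, 10.5%, 10.6% and 20.3% were higher and 6.9%, 7.98%, 7.51% and 11.2% lower, with medians of 0.06, 0.13, 0.10 and 0.27, and in all 4 libraries 131 of 9327 genes (1.4%) were higher and 58 (0.622%) lower. HEY2, a Notch target, stood at 104, 181, 164 and 233 CPM in arterial-marked barcodes, against 16.7, 2.41, 7.86 and 1.10 CPM in venous-marked barcodes. The ligand EFNB2 stood at 366, 538, 485 and 544 CPM, against 74.1, 146, 114 and 97.7 CPM, the transcription factor SOX17 at 339, 184, 262 and 239 CPM, against 95.8, 71.7, 83.1 and 53.0 CPM, and MECOM at 182, 299, 316 and 347 CPM, against 48.7, 52.8, 53.9 and 30.9 CPM. The hypoxia factor EPAS1 was 6.29-fold (4.79 to 8.25) to 14.8-fold (11.2 to 19.7) higher in arterial-marked barcodes. KDR and CLDN5 differed by less than 1.5-fold between the sets in every library, but other general endothelial genes differed more. Of the pan-endothelial list, 6, 3, 7 and 9 genes were higher by 2-fold or more in arterial-marked barcodes. CLEC14A, FLT1 and VWF were among them in each library. NOSTRIN was lower at E28, E31 and E37, and ARHGEF15, AFAP1L1 and APOLD1 were lower at E37.

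The gene with the widest arterial excess in its weakest library was TMEM100, a BMP9 and ALK1 target at the membrane. It stood at 410, 423, 440 and 1058 CPM in arterial-marked barcodes, against 2.90, 1.38, 2.25 and 1.10 CPM in venous-marked barcodes, at least 141-fold apart in each library. The genes after it included PALMD, the cytoskeletal adaptor SORBS2, ESM1, the heparan sulphatase SULF1, the growth factor VEGFC, the netrin receptor UNC5B, SYNPO and STEAP1. SULF1 stood at 69.1, 187, 166 and 353 CPM in arterial-marked barcodes, against 5.81, 4.83, 5.62 and 0.552 CPM in venous-marked barcodes. ESM1 was at 383, 779, 1284 and 102 CPM, against 14.2, 62.1, 45.5 and 2.21 CPM, so its lower level at E37 was seen in both sets. VEGFC, the ligand of the lymphatic receptor FLT4, was at 34.6, 129, 62.1 and 161 CPM, against 1.45, 6.90, 5.90 and 11.6 CPM.

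Part of the BMP and TGF-beta signalling genes were higher in arterial-marked barcodes. Of the measured genes of that list, 5 of 14, 9 of 16, 7 of 16 and 12 of 16 were higher, where 9.22%, 10.5%, 10.6% and 20.3% of all genes were, with medians of 0.80, 1.38, 0.87 and 2.25, and 1 gene each was lower at E31 (BMP4) and at E37 (SMAD1). ID1, a direct BMP target, stood at 452, 495, 612 and 1129 CPM in arterial-marked barcodes, against 182, 171, 299 and 182 CPM in venous-marked ones. The inhibitory SMAD6 stood at 34.6, 71.9, 70.5 and 149 CPM, against 3.63, 5.17, 4.49 and 3.86 CPM, and SMAD7 at 18.4, 77.6, 59.2 and 149 CPM, against 6.17, 8.28, 9.55 and 6.62 CPM. All 3 were higher in arterial-marked barcodes of all 4 libraries.

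Some matrix genes were higher in arterial-marked barcodes too. Fibronectin, FN1, stood at 1846, 1944, 2406 and 3376 CPM in arterial-marked barcodes, against 565, 420, 351 and 280 CPM in venous-marked barcodes, and the collagen COL4A1 at 417, 684, 649 and 556 CPM, against 180, 271, 176 and 157 CPM. Of the basement membrane list, 6 of 14, 8 of 16, 7 of 16 and 10 of 16 measured genes were higher, with TIMP3 lower at E24, E31 and E37. Over all genes, 9.22%, 10.5%, 10.6% and 20.3% were higher. The ratio for FN1 was 3.27-fold (3.00 to 3.56) at E24 and 12-fold (10.7 to 13.6) at E37. Among secreted genes, EDN1 stood at 85.3, 124, 539 and 1082 CPM in arterial-marked barcodes, against 42.5, 4.14, 21.6 and 16.0 CPM in venous-marked ones. It differed by 2.01-fold (1.35 to 2.93) at E24 and by 67.6-fold (45.5 to 104) at E37, and of the barcodes with an EDN1 UMI, 22.5%, 75.0%, 40.5% and 61.3% also had GJA5. VWF stood at 106, 124, 152 and 412 CPM in arterial-marked barcodes, against 22.5, 31.7, 48.3 and 40.3 CPM.

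The venous side was led by FLRT2, PMP22, OLFML3, IRX3, STAB2, PROX1, PRCP, NKAIN4, IL1R1 and NT5E. STAB2 and PROX1 are on the list of lymphatic genes, which shares FLT4 and NRP2 with the genes that defined the venous set. Of the venous list outside the defining genes, 1 of 3, 1 of 3, 1 of 4 and 1 of 3 measured genes were lower in arterial-marked barcodes, in each case FLRT2, and EMCN at E24 and SELP and EMCN at E31 were higher. FLRT2, a guidance protein, stood at 4.61, 8.63, 5.64 and 5.98 CPM in arterial-marked barcodes, against 100.2, 146, 141 and 158 CPM in venous-marked barcodes. OLFML3 stood at 34.6, 14.4, 25.4 and 12 CPM, against 187, 304, 440 and 290 CPM, and PRCP, a lysosomal peptidase, at 59.9, 77.6, 70.5 and 71.7 CPM, against 240, 445, 356 and 488 CPM. The homeobox gene IRX3 stood at 2.30, 2.88, 5.64 and 0 CPM, against 26.9, 65.9, 58.1 and 84.4 CPM. The arterial values of FLRT2 and IRX3 rest on between 0 and 3 UMIs a library. HAPLN1 was also lower in arterial-marked barcodes, at 578, 170, 387 and 120 CPM, against 1929, 1007, 997 and 295 CPM.

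**Figure D3:**
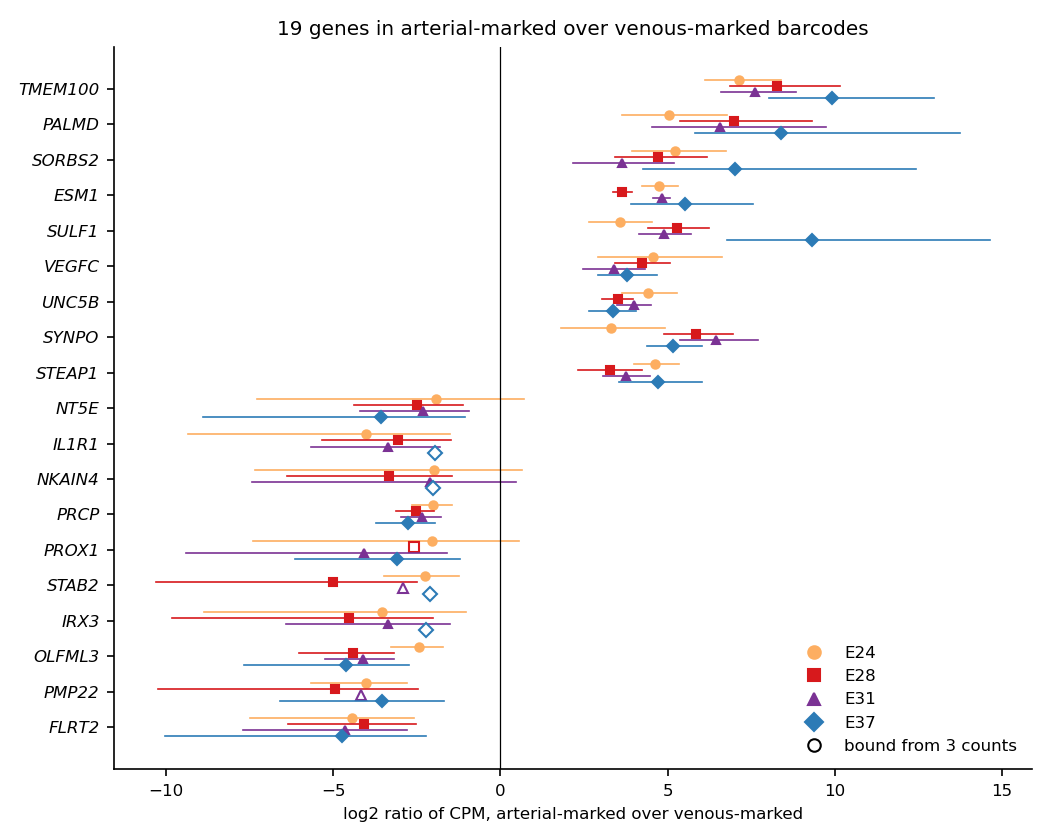
Log2 ratio of CPM in arterial-marked over venous-marked barcodes for 19 of the genes named by the fixed order, 1 marker per library (orange circles E24, red squares E28, purple triangles E31, blue diamonds E37) with 95% counting intervals; open markers are bounds from 3 counts. TMEM100 lies above 7 on the log2 scale in each library, and the 10 venous genes lie below 0 with wide intervals where the arterial-marked barcodes held few UMIs.

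Cell cycle genes separated the sets most at E37. The 20 genes summed to 1558, 1559, 1371 and 137 CPM in arterial-marked barcodes, against 2624, 1800, 2087 and 1721 CPM in venous-marked barcodes. The arterial-marked sum was 1.68-fold (1.56 to 1.83) lower at E24, 1.16-fold (1.06 to 1.26) at E28, 1.52-fold (1.39 to 1.67) at E31 and 12.5-fold (8.33 to 19.8) at E37. Of 20 genes, 6, 1, 5 and 16 were 2-fold or more lower in arterial-marked barcodes. Over all genes, 6.9%, 7.98%, 7.51% and 11.2% were lower. At E28 the 1 lower gene was MCM4, and AURKA was higher by 2-fold or more. At E37 the arterial-marked sum was 23 UMIs from 19 barcodes.

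MKI67, a gene of dividing cells, had a UMI in 16 of 50, 11 of 30, 12 of 28 and 0 of 19 arterial-marked barcodes, and in 143 of 218, 97 of 194, 125 of 267 and 57 of 175 venous-marked barcodes. The interval of the 0 of 19 runs to 17.6% of barcodes with a UMI, where 32.6% of the venous-marked barcodes had one at E37. TOP2A, the replication topoisomerase, stood at 143, 178, 104 and 5.98 CPM, against 293, 198, 221 and 197 CPM. After thinning to 2000 UMIs, 3 or more cycle genes were found in 19 of 50, 6 of 30, 9 of 28 and 0 of 19 arterial-marked barcodes, and in 62.4%, 40.2%, 43.4% and 33.7% of venous-marked barcodes. CDKN1C, an inhibitor of the cycle, stood at 96.8, 112, 87.5 and 173 CPM in arterial-marked barcodes, against 64.6, 69.7, 90.4 and 92.2 CPM, under 2-fold in every library. Of the listed brakes of the cycle, BTG2 was higher by 2-fold or more in arterial-marked barcodes at E24, E31 and E37 and BTG1 at E37, with none lower.

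**Figure D4:**
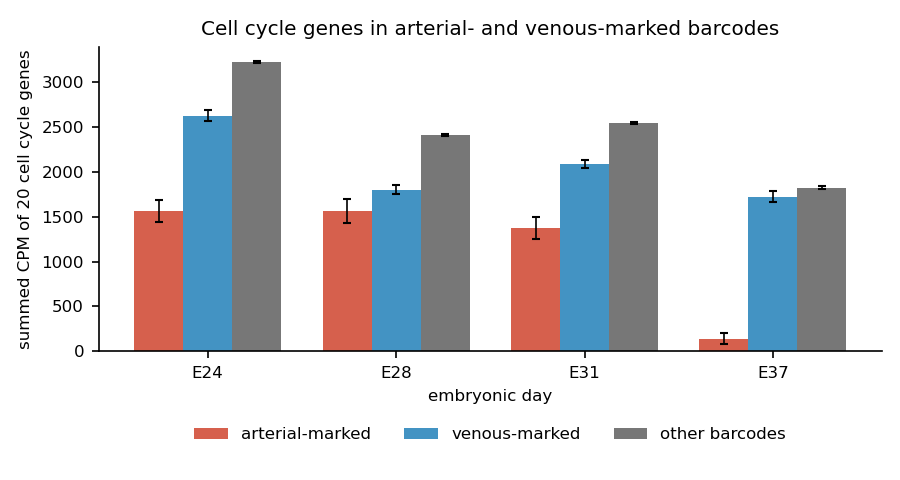
Summed CPM of 20 cell cycle genes by embryonic day in arterial-marked, venous-marked and other barcodes, with 95% counting intervals as error bars. Arterial-marked bars lie below venous-marked bars at each stage and reach 137 CPM at E37, against 1721 CPM in venous-marked barcodes.

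PROX1, the factor that specifies lymphatic endothelium, was higher in venous-marked than in arterial-marked barcodes and highest at E37. FLT4 and NRP2, which helped to define the venous set, are also on the lymphatic list. The split can thus place lymphatic-type barcodes on the venous side by definition, and the PROX1 difference between the sets is a description only. Venous-marked barcodes made up 74.7%, 78.9%, 79.9% and 82.5% of endothelial barcodes. In all endothelial barcodes it stood at 8.44, 41.8, 40.1 and 87.5 CPM, against 4.50, 4.81, 3.77 and 6.29 CPM in the other barcodes. It was 4.96-fold (3.31 to 7.65) higher at E28 than at E24 and 2.18-fold (1.77 to 2.70) higher at E37 than at E31. A PROX1 UMI was found in 8.90%, 27.2%, 26.3% and 37.3% of endothelial barcodes, and after thinning in 2.05%, 7.72%, 8.08% and 17.9%, where the other barcodes had 0.889%, 0.941%, 0.616% and 1.22%. Arterial-marked barcodes had 2.30, 0, 2.82 and 12 CPM, against 9.44, 51.4, 48.0 and 101 CPM in venous-marked barcodes.

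Most PROX1 barcodes had NR2F2 and few had LYVE1. Of the 26, 67, 88 and 79 barcodes with PROX1, 88.5%, 89.6%, 92.0% and 88.6% also had NR2F2, against 63.9%, 66.5%, 67.5% and 67.7% of those without. STAB2 was found in 26.9%, 59.7%, 50% and 50.6% of them, against 21.8%, 20.1%, 20.3% and 24.8% of those without. LYVE1, the hyaluronan receptor of lymphatic vessels, was found in 0 of 26, 0 of 67, 4 of 88 and 1 of 79, and the lymphatic chemokine CCL21 had no UMI in endothelial or in other barcodes. These shares are not corrected for depth, and a barcode with more UMIs has more of each gene.

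LYVE1 itself stood at 27.9, 6.13, 1.36 and 7.56 CPM in endothelial barcodes, against 4.71, 7.54, 5.68 and 17.1 CPM in the other barcodes. At E24, 6 barcodes had 5 or more LYVE1 UMIs, chosen for description after their values were seen. All 6 had STAB2 and CDH5, 5 had the mannose receptor MRC1, 1 had C1QA and none had PROX1 or the leukocyte gene PTPRC, and they held 80 STAB2 UMIs, or 32.0% of those of all endothelial barcodes at E24. At E28 and E37 a single barcode each had as many LYVE1 UMIs, and both were the barcodes that carried the C1QA UMIs.

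Blood stem cells arise from endothelium, and 5 genes of that step or of blood cells were counted in each barcode, a choice made after values were seen. RUNX1, MYB, GFI1, SPI1 and PTPRC had a UMI in 3 or more of 5 in 1 of 292 (0.342%), 13 of 246 (5.28%), 23 of 334 (6.89%) and 6 of 212 (2.83%) endothelial barcodes. The interval was 0.00867 to 1.89% at E24 and 4.42 to 10.2% at E31. Of the barcodes, 1, 9, 18 and 5 lay in neither the arterial-marked nor the venous-marked set. SPI1 and PTPRC are also on the macrophage list. In these barcodes at E28 and E31, SPI1 had 57 and 69 UMIs and PTPRC 34 and 39. MYB had 17 and 39, GFI1 15 and 24 and RUNX1 6 and 14.

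The rule itself asked for endothelial genes in these barcodes, so only genes outside it bear on their makeup. At E28 and E31, CD34, which the rule did not use, stood at 425 and 386 CPM in them, against 441 and 344 CPM in the remaining endothelial barcodes. PECAM1, a gene of the rule, stood at 240 and 237 CPM, against 320 and 312 CPM. CDH5, the endothelial cadherin and another rule gene, stood at 240 and 231 CPM, against 626 and 449 CPM. The rule gene KDR was lower, at 38.1 and 128 CPM, against 347 and 297 CPM, and so were RAMP2, at 98.0 and 398 CPM, against 3057 and 2734 CPM, and CLDN5, at 70.8 and 33.4 CPM, against 351 and 315 CPM. KDR had a UMI in 5 of 13 and 10 of 23 of them, where 92.7% and 89.4% of the remaining barcodes had one.

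Most leukocyte genes outside the count that were looked at stood higher in them. CORO1A, an actin regulator of blood cells, stood at 103 and 149 CPM in these barcodes, against 8.52 and 8.81 CPM in the remaining endothelial barcodes, and the GTPase RAC2 at 103 and 82.0 CPM, against 3.23 and 1.71 CPM. SPN, the sialophorin of early blood progenitors, stood at 32.7 and 39.5 CPM, against 0.588 and 0.734 CPM. The calcium-binding AIF1 stood at 534 and 671 CPM, against 50.5 and 41.3 CPM, and CSF1R, the receptor of macrophages, at 92.6 and 82.0 CPM, against 5.29 and 2.94 CPM. TYROBP, also of the macrophage list, stood at 38.1 and 66.8 CPM, against 7.64 and 1.96 CPM. The leukocyte integrin ITGB2 went the other way, at 27.2 and 27.3 CPM, against 56.1 and 51.1 CPM. The macrophage complement gene C1QA and the erythroid and megakaryocytic factor GATA1 had no UMI in them at either stage. KIT, present on both blood progenitors and endothelium, stood at 70.8 and 54.7 CPM, against 92.0 and 70.9 CPM. Their median UMIs were 13688 and 14199, against 13354.5 and 11343 in all endothelial barcodes, and the part of barcodes that hold 2 cells was not tested.

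**Figure D5:**
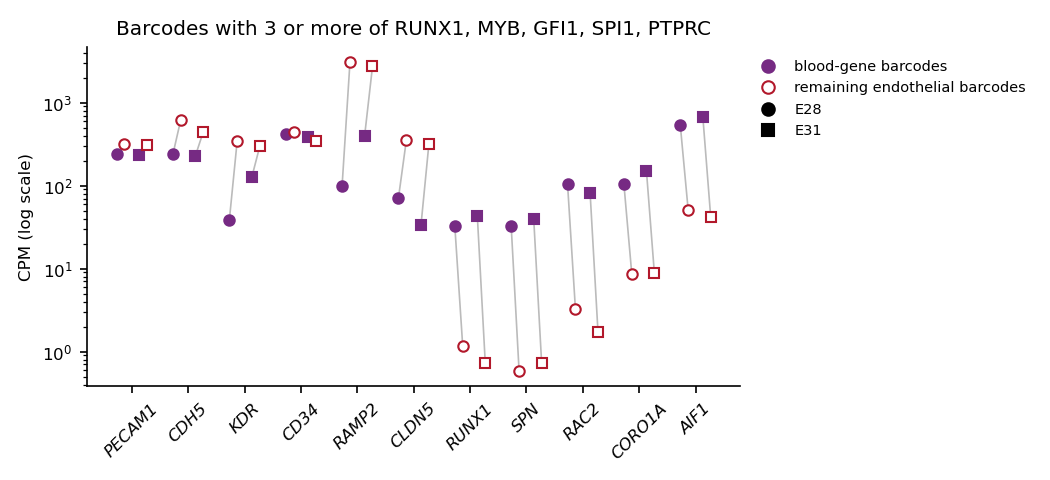
CPM (log scale) of 11 genes at E28 (circles) and E31 (squares) in barcodes with 3 or more of RUNX1, MYB, GFI1, SPI1 and PTPRC (filled) and in the remaining endothelial barcodes (open), with the pair of each stage joined by a line. CD34 lies at the same level in both, KDR, RAMP2 and CLDN5 lie lower and CORO1A, RAC2 and AIF1 higher in the blood-gene barcodes.

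HOX genes, which record position along the body, did not stand above the surrounding cells. No HOX gene was 2-fold or more higher in endothelial than in other barcodes in any library, and 14 of 27, 19 of 27, 14 of 25 and 14 of 26 measured genes were lower, where 7.45%, 11.5%, 9.58% and 12.1% of all genes were. By cluster, a division made after the values were seen, all measured HOXC genes were lower, 6 of 6, 6 of 6, 5 of 5 and 6 of 6. In the HOXB cluster 2 of 9, 3 of 8, 1 of 8 and 0 of 8 were lower. The other barcodes differ in dissection between stages, so these counts are set against different tissue at each stage.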

How the data were processed

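The deposited matrices hold raw UMI counts per gene and barcode for 4 libraries. Reads were counted with Cell Ranger 2.1.0 per the submitters' processing notes. Build and annotation were not given in the sources used here, and the protocol names both version 2 chemistry and version 3 kits without saying which was used. The tables listed 26223 gene rows, and 1 row with no name held 0 UMIs and was left out. No barcode was filtered further. The members and gene lists were chosen with earlier results of these data known. Of 401 listed genes 391 were in the tables, 7 of them under an older name.

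UMIs were summed per group, scaled to CPM and compared as ratios with exact conditional binomial 95% intervals, and shares have Clopper-Pearson intervals. These cover counting error only. Log2 values and list medians add 0.5 UMI to each sum, and a gene at 0 UMIs is bounded by 3 counts. Genes were named by fixed orders. Against other barcodes these were the 20 genes with the highest lower bound in their weakest library. Between stages they were up to 8 genes a direction with 50 or more UMIs and a ratio within 1.5-fold in the other barcodes, and the first 3 with no such limit. Between arterial-marked and venous-marked barcodes they were up to 10 a direction by the smallest ratio over the libraries. Ribosomal protein genes, globins and unnamed loci were left out, and a few named genes are not reported here. For ratios and gene counts after thinning, the rule and the arterial and venous split were applied again to the thinned counts. Those values therefore come from other sets of barcodes than the main values. Shares of barcodes with a UMI after thinning keep the original members. Doublets were kept in the main values. Scrublet called 0, 64, 7 and 4 barcodes and was not used, and an alternative dropped the highest scores at 0.8% per 1000 barcodes. It dropped 906 of 10639, 202 of 5028, 355 of 6661 and 225 of 5298 barcodes. Of the endothelial barcodes, 75 of 292, 22 of 246, 40 of 334 and 11 of 212 were among those dropped. The calculations used Python 3.11.15, numpy 2.4.6, scipy 1.17.1, pandas 2.3.3, scanpy 1.11.5 and matplotlib 3.10.9, and were tested on simulated counts.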

Additional observations from a re-analysis of the deposited data

Results flagged for a closer look

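In all, 7 genes were higher in endothelial than in other barcodes at one stage and lower at another, by 2-fold or more each way. The difference between stages was not tested, since each stage has 1 library. CAV1, the coat protein of caveolae, had a log2 ratio of endothelial over other barcodes of -1.68 at E28, -2.79 at E31 and 3.75 at E37. Its level in the other barcodes was 11.1, 13.3 and 1.44 CPM at these stages. IGFBP3, a carrier of insulin-like growth factors, had 1.61 at E31 and -3.28 at E37, with 195 CPM in endothelial barcodes against 63.8 CPM in the others at E31, and 61.5 against 601 CPM at E37.

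The Notch ligand DLL1 had -1.52 at E24 and 3.30 at E37. It stood at 11.9 CPM in endothelial barcodes against 34.6 CPM in the others at E24, and at 18 against 1.84 CPM at E37. The hyaluronan receptor LYVE1 had 2.57 at E24 and -1.14 at E37. The interferon-induced membrane gene IFITM1 had -2.12 at E28, -1.21 at E31 and 2.08 at E37. It stood at 29.8 CPM in endothelial barcodes against 131 CPM in the others at E28, and at 36.4 against 8.68 CPM at E37.

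Neurotensin, NTS, had 4.52 at E24, -2.71 at E28 and 5.29 at E37, and stood at 123 CPM in endothelial barcodes against 3.15 CPM in the others at E37. LRP11 had 1.26 at E24, 1.34 at E31 and -1.49 at E37.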

How the results depend on the processing

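No paired analysis was possible because each stage has 1 library and the labels number no replicates, and for the same reason no library could be left out. Settings other than the reported one moved 36 counts of genes and left 130 in place, moved 11 shares and left 41, and moved 113 list medians and left 913. Of the values of named genes, 308 moved, 15 turned their direction and 2352 did neither. The arterial-marked share stayed within its interval under every setting run.

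The share of barcodes called endothelial at E24 was 3.09% with 3 rule genes. It was 2.04% at E24 and 4.41% at E31 without expected-rate doublets. Applied after thinning to 2000 UMIs, the rule gave 1.41%, 3.24%, 2.93% and 2.49%, and without members carrying 3 markers of another type the shares were 2.22%, 3.96%, 3.99% and 3.47%.

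Counts of genes past 2-fold moved with the level filter and with thinning. With no filter but 3 UMIs, endothelial barcodes were higher in 4783, 3879, 3797 and 4065 genes and lower in 2040, 2900, 2651 and 2459. The stage pairs gave 1483 higher and 1123 lower (E28 over E24), 969 and 877 (E31 over E28) and 963 and 1104 (E37 over E31). At 20 CPM, 373, 669, 535 and 679 genes were lower than in other barcodes, and the stage pairs gave 195 and 158, 38 and 37, and 111 and 132. After thinning, 1642 genes were higher and 1168 lower at E24 and 1425 lower at E31, the stage pairs gave 1101 and 1060, 838 and 826, and 1024 and 1238, and 15 genes were higher and 14 lower in arterial-marked barcodes of all 4 libraries, where the unthinned counts were 131 and 58. With 3 rule genes, 49 genes were higher at E31 than at E28.

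Named genes that kept their direction but not 2-fold include KLF2, KLF4, SOX18, CLDN5, NOSTRIN, PFKFB3 and PROX1 (E37 over E31, 0.92) after thinning, DLK1 with 3 rule genes and ETV2 without expected-rate doublets. The direction turned for others, given here as log2 ratios. PLEK, E37 over E31, became -2.65 with 5 rule genes, -1.99 without members carrying 3 markers of another type and -2.84 without megakaryocyte-marked members, and CCL5 became -0.18 with 5 rule genes and -0.15 without megakaryocyte-marked members. SPI1, E28 over E24, became -1.42 without members carrying 3 markers of another type and -0.26 without members with 3 blood genes, and PTPRC became -0.14 without members carrying 3 markers of another type and -0.12 after thinning. Thinning also turned ETV2, E28 over E24, to 1.47, DLK1 to -1.0 and NOTCH2 to -0.26, both E31 over E28, and in arterial-marked over venous-marked barcodes IRX3 to 0.17 at E28 and NKAIN4 to 0.26 at E28 and 1.86 at E31. Thinning leaves fewer UMIs and chooses the barcodes again, and PLEK and CCL5 came from single barcodes. The cause of the turns was not tested. The settings without megakaryocyte-marked members and without members with 3 blood genes were chosen after seeing the data.

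With 1 library a stage, stage, dissection, embryo and library cannot be told apart, and intervals cover counting error alone. Thin sets limit the arterial values, with 19 barcodes at E37. Free RNA and barcodes holding 2 cells were not removed.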

Other observations

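The homeobox gene LHX6, better known from interneurons and the jaw, was an endothelial gene in these libraries. It stood at 16.3, 30.4, 26.0 and 48.2 CPM in endothelial barcodes at E24, E28, E31 and E37, against 0.0894, 0.238, 0.0885 and 0.157 CPM in the other barcodes. No LHX6 UMI fell in an arterial-marked barcode of any library, where venous-marked barcodes had 20, 37.6, 32.3 and 56.3 CPM. Of the barcodes with LHX6, 0 of 42, 4 of 63, 0 of 62 and 0 of 61 had GJA5, and 90.5%, 96.8%, 100% and 96.7% had NR2F2. LHX6 was looked at after its values were seen.

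The KIT receptor was lower by 2-fold or more in arterial-marked barcodes at E28 and E37. It stood at 36.9, 20.1, 36.7 and 5.98 CPM in arterial-marked barcodes, against 45.7, 103, 73.0 and 102 CPM in venous-marked barcodes. Barcodes with 2 or more genes of both the arterial and the venous set numbered 55, 56, 62 and 11 of the endothelial barcodes at E24, E28, E31 and E37.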
